A study of Mus musculus with 15 samples.

Results

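The contractile genes whose textbook site is skeletal or heart muscle were followed in mouse thoracic aorta, 10 of the 37681 genes in the deposited count table. They were taken by gene symbol, whatever their level. The 6 genes of fast skeletal muscle are Acta1, Ckm, Myh1, Myh4, Mylpf and Tnnt3, and the 4 cardiac genes are Actc1, Myh6, Tnnt2 and Myl7. Polyadenylated RNA was sequenced from wild-type C57BL/6 adult males aged 10 to 12 weeks, in 3 groups of 5 biological replicates. Celecoxib at 30 mg/kg and rofecoxib at 10 mg/kg, both selective inhibitors of cyclooxygenase-2, were each set against the PEG-400 vehicle. All mice received 100 uL by gavage, and aortas were taken 6 h later at ZT11, late in the light phase. The doses of the compounds differ, so their values stand side by side and were not compared with each other.

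Striated muscle contracts through sarcomeres, in which myosin heavy and light chains pull on actin filaments while troponin switches the filament on with calcium. Each muscle type uses its own isoforms of these proteins, and the smooth muscle of the aortic wall has its own actin and myosin and lacks troponin-based control. Transcription factors of the SRF, MEF2, TEAD and basic helix-loop-helix families drive many of these genes through the CArG box, MEF2 site, MCAT and E-box.

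Deposited counts summed to between 30937046 and 30967115 per library, with 19158 to 19746 genes detected. No gene passed the adjusted threshold of 0.05 in either comparison by edgeR's quasi-likelihood test over 15134 genes, and limma-voom also called 0. DESeq2 called 129 genes for celecoxib, 1.01% of those it adjusted, and 0 for rofecoxib. None of the 9 members tested was called by edgeR or limma-voom. DESeq2 gave an adjusted p for 6 of the 9 for celecoxib, leaving out Myl7, Mylpf and Myh1, and for 9 for rofecoxib, and called 0 of them. For rofecoxib against vehicle the edgeR adjusted p was 0.962 for Ckm, 0.998 for Tnnt3 and 0.999995 for each of the other 7 members, and it is given here for all of them.

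The actin genes are shown first because aortic RNA is rich in their smooth muscle relative Acta2. Over the coding sequence, Acta1 is 85.4% and Actc1 82.6% identical to Acta2, and neither transcript shares an exact run of 50 bases with it. Coding bases 1015 to 1074 are the 60 bases closest to Acta2 over both genes, and capitals mark bases that differ from Acta2 (GENCODE M21 transcripts, GRCm38, given 5′ to 3′ on the coding strand; chromosomes 8, 2 and 19).
Acta1: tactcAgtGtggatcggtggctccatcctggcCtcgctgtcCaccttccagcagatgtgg
Actc1: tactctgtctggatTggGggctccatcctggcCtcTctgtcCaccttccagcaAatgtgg
Acta2: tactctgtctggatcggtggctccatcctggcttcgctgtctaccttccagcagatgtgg
Acta1 differs from Acta2 at 4 of these bases and Actc1 at 6. Acta2 held 454490 to 709026 counts per library, and how reads that match several genes were counted is not given in the sources used here. The part of Acta2 reads in the counts of Acta1 and Actc1 was not tested. The Myh1 transcript shares 20.1% of its 50-base windows with Myh2 and 10.8% with Myh4, and Myh6 shares 22.6% with Myh7. Counts of these heavy chains are therefore uncertain between the copies.

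Promoters are shown for both actins and for Myh6 and Myl7, the cardiac members that varied together. They cover the 250 bases before the RefSeq start on GRCm38.p6, a later build than the mm9 of the count table. Capitals mark matches to TATAAA, the CArG box or the MEF2 site.
Acta1 promoter, chr8:123894776-123895025, minus strand: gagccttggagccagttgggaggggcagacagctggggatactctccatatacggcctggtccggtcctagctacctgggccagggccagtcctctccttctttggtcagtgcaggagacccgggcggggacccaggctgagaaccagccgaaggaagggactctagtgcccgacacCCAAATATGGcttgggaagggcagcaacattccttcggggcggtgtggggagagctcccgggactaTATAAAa
Actc1 promoter, chr2:114052876-114053125, minus strand: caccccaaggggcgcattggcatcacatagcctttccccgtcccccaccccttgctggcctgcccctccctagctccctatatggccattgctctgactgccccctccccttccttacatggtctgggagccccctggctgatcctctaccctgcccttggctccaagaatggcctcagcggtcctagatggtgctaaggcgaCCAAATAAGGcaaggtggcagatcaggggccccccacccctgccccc
Myl7 promoter, chr11:5898783-5899032, minus strand: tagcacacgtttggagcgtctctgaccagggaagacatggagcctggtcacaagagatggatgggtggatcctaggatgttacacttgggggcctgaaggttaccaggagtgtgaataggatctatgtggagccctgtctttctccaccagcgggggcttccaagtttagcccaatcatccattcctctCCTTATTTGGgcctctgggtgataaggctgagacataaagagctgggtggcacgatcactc
Myh6 promoter, chr14:54966608-54966857, minus strand: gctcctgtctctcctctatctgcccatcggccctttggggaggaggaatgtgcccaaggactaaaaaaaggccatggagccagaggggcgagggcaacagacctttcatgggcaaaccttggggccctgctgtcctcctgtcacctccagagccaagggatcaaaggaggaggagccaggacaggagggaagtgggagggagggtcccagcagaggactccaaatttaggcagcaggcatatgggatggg
The CArG box, the binding site of SRF, was searched as CC, 6 bases of A or T, and GG, with no mismatch allowed. It begins 73 bases before the RefSeq start in Acta1, 47 in Actc1 and 61 in Myl7, and the Myh6 window holds no such match. Across the 10 promoters found for 9 members, 4 held a CArG box, against 1.47% of 32851 mouse promoters of the same length. The MEF2 site was in 2 of the 10, against 2.92% of all promoters. TATAAA was in 3 (12.4% of all), CATTCC, the MCAT, in 6 (12.6%), and CANNTG, the E-box, in 8 (66.2%). Both strands were searched, and the TATAAA and MEF2 letters can overlap. A match describes the letters only.

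The label of skeletal and heart muscle was checked against marker genes of those cells, and the lists gave a mixed picture. Of 17 fast-fibre genes 10 passed the filter on low counts, as did 1 of 4 slow-fibre, 1 of 7 myogenic, 8 of 11 other heart and 1 of 4 atrial genes. Myh4, the fastest myosin heavy chain, had at most 2 counts. Among other fast-fibre genes, some were at or near 0, and Pvalb (parvalbumin) had 0 to 2 counts, Ampd1 0 to 3, Cacna1s 0 to 4, Atp2a1 0 to 13 and Ryr1 0 to 14. Myod1 and Myog, which commit cells to skeletal muscle, had 0 or 1 count, and Myf6 had none in any library. Of heart genes, Nkx2-5 and Bmp10 had 0 counts in all 15 libraries, and Myl2, the ventricular light chain, had 0 or 1. Other genes of the same lists were present in every library. Among them were the fast-fibre genes Casq1 (2687 to 6792 counts), Pygm (2102 to 3680), Mybpc2 (124 to 275), Myl1 (44 to 153) and Neb (51 to 127). The heart genes Ryr2 (1556 to 2986), Pln (239 to 889) and Tnni3 (57 to 174) were present as well. The members are therefore called by their gene names, and neither the presence nor the absence of striated muscle cells is read from them. In bulk tissue, fewer cells of a type and less RNA per cell cannot be told apart.

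Per kilobase of exon, all members lay far below the smooth muscle genes, and Tnnt2 and Actc1 led them in every group. Tnnt2 averaged 10.1 ± 4.18 CPM per kilobase in celecoxib, 7.94 ± 2.70 in rofecoxib and 7.64 ± 1.99 in vehicle aortas (CPM are counts scaled to library size, SD, n = 5 each). Actc1 averaged 8.44 ± 8.04 in celecoxib, 5.78 ± 2.73 in rofecoxib and 9.91 ± 3.85 in vehicle aortas, so these neighbours did not differ beyond their spread. Acta2 stood at 9379 ± 180 in celecoxib, 10020 ± 989 in rofecoxib and 9316 ± 1587 in vehicle aortas. Below them in vehicle aortas came Myl7 at 2.52 ± 2.92, Ckm at 1.88 ± 0.144, Myh6 at 1.78 ± 1.60, Acta1 at 1.74 ± 0.542 and Tnnt3 at 1.47 ± 0.457 CPM per kilobase, which did not differ beyond their spread. Mylpf followed at 0.501 ± 0.0761 and Myh1 at 0.0742 ± 0.0541, each below the one before by more than their SDs.

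**Figure D1:**
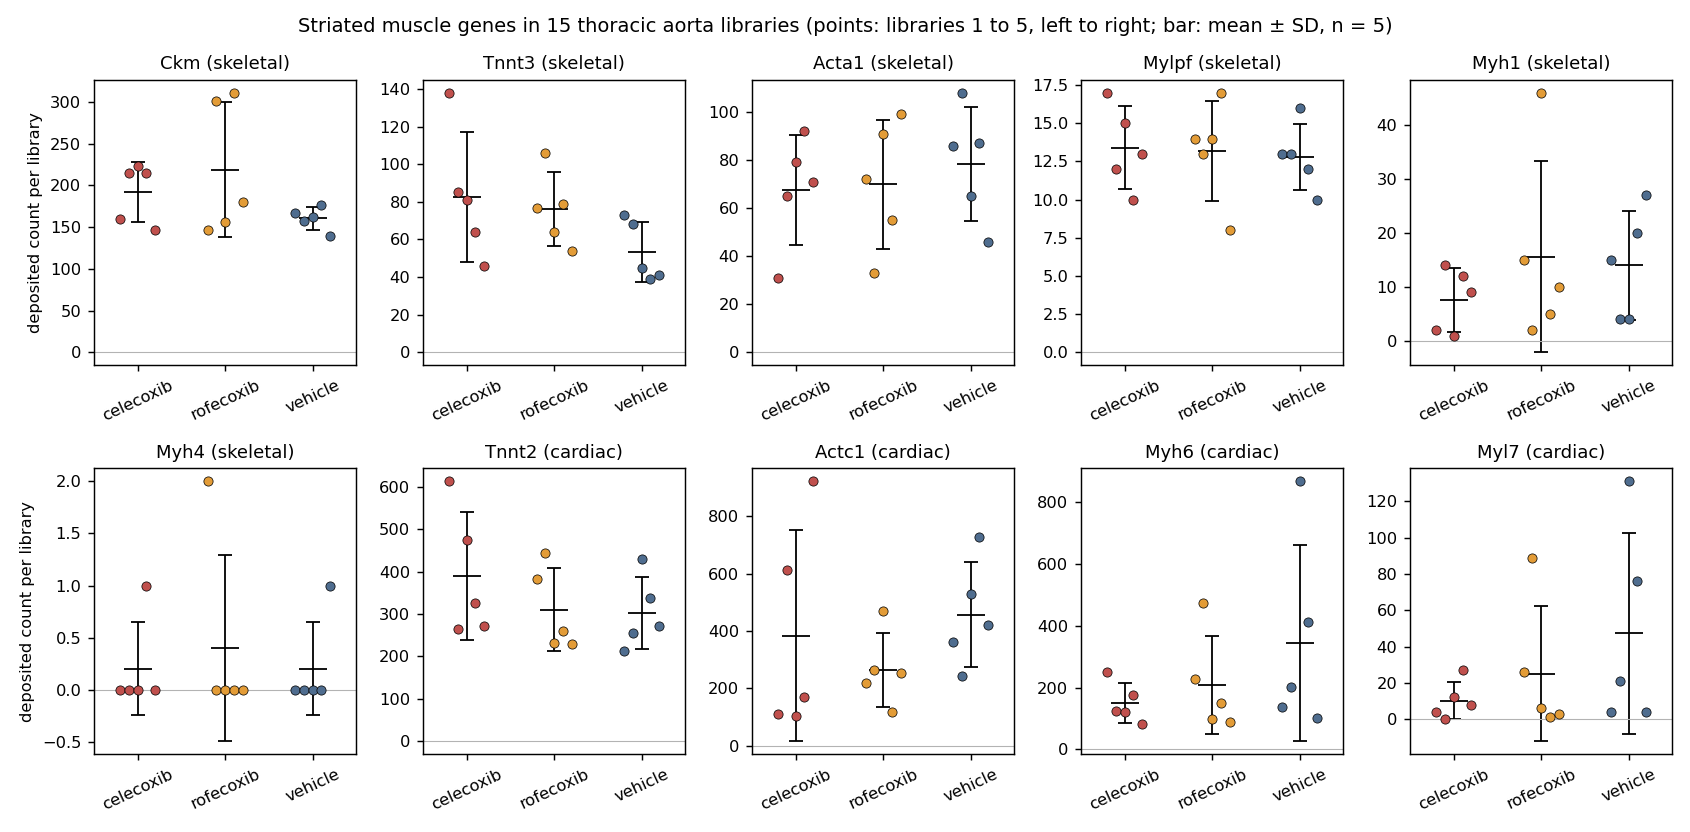
Deposited counts of each of the 10 members per library, with celecoxib, rofecoxib and vehicle from left to right. Points are libraries and bars mark the mean ± SD of each group (n = 5), and Myh6 and Myl7 show vehicle 3, at 868 and 131 counts, above all other libraries.

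Myh6, the alpha myosin heavy chain of the adult mouse heart (ENSMUSG00000040752, mm9 chr14:55560556-55585966), had, after Myl7, the widest vehicle spread relative to its mean of the 4 cardiac members. Counts were 249, 125, 122, 176 and 81 in celecoxib aortas, 228, 474, 99, 150 and 90 in rofecoxib aortas, and 136, 202, 868, 413 and 100 in vehicle aortas. Vehicle 3, rofecoxib 2 and vehicle 4 were the 3 highest libraries, and the groups overlapped. Celecoxib against vehicle gave a log2 fold change of -1.14 ± 0.60 (SE, 95% interval -2.42 to 0.15, edgeR adjusted p = 0.460), and rofecoxib against vehicle gave -0.68 ± 0.59 (95% interval -1.95 to 0.59). Without vehicle 3 these became -0.45 and -0.00165, and without rofecoxib 2 the rofecoxib value became -1.26.

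Myl7, the atrial regulatory light chain (ENSMUSG00000020469, mm9 chr11:5796438-5798987), had 4, 0, 12, 27 and 8 counts in celecoxib aortas. It had 26, 89, 6, 1 and 3 counts in rofecoxib aortas, and 4, 21, 131, 76 and 4 in vehicle aortas. The highest libraries were again vehicle 3, rofecoxib 2 and vehicle 4, and the groups overlapped. The 0 in celecoxib 2 allows up to 3 counts, for counting error only. Its log2 fold change was -2.15 ± 1.19 for celecoxib against vehicle (95% interval -4.71 to 0.40, edgeR adjusted p = 0.487), and -0.86 ± 1.12 for rofecoxib against vehicle. Without vehicle 3 the values became -1.32 and -0.02. Without celecoxib 4 the celecoxib value became -2.89, and without rofecoxib 2 the rofecoxib value became -2.35.

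Actc1, the cardiac alpha-actin (ENSMUSG00000068614, mm9 chr2:113872816-113879486), did not follow Myh6. Counts were 110, 613, 104, 171 and 921 in celecoxib aortas, 219, 265, 471, 118 and 253 in rofecoxib aortas, and 361, 244, 529, 728 and 421 in vehicle aortas. Celecoxib 5 and celecoxib 2 were high while celecoxib 1 and celecoxib 3 were low, so the celecoxib libraries alone spanned the whole range. For celecoxib against vehicle the log2 fold change was -0.23 ± 0.56 (edgeR adjusted p = 0.899), and its sign turned to 0.02 without celecoxib 3 and to 0.01 without celecoxib 1. Without celecoxib 5, the highest library, it became -0.84. For rofecoxib against vehicle it was -0.78 ± 0.57.

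Tnnt2, cardiac troponin T, the subunit that ties troponin to tropomyosin (ENSMUSG00000026414, mm9 chr1:137737250-137749039), varied least in vehicle aortas, relative to its mean, of the 4 cardiac members. Counts were 613, 264, 474, 325 and 271 in celecoxib aortas, 383, 445, 232, 260 and 230 in rofecoxib aortas, and 213, 255, 431, 337 and 271 in vehicle aortas. Celecoxib 1 was highest, and the groups overlapped. On the log2 scale the fold change was 0.41 ± 0.28 for celecoxib (edgeR adjusted p = 0.594) and 0.06 ± 0.28 for rofecoxib, each against vehicle. Without celecoxib 1 the celecoxib value became 0.17.

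Tnnt3, fast skeletal troponin T (ENSMUSG00000061723, mm9 chr7:149684539-149702116), was the member whose 95% interval excluded 0 in the celecoxib comparison. Counts were 138, 85, 81, 64 and 46 in celecoxib aortas, 77, 106, 64, 79 and 54 in rofecoxib aortas, and 73, 68, 45, 39 and 41 in vehicle aortas. Celecoxib 1 was highest, and 2 of the 5 vehicle libraries lay above celecoxib 4 and celecoxib 5. Celecoxib against vehicle gave a log2 fold change of 0.67 ± 0.30 (95% interval 0.03 to 1.30, edgeR adjusted p = 0.378), and 0.39 without celecoxib 1. For rofecoxib against vehicle it was 0.52 ± 0.30 (95% interval -0.12 to 1.15).

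Ckm, the muscle creatine kinase that buffers ATP (ENSMUSG00000030399, mm9 chr7:19996241-20007134), had the least vehicle spread of the members relative to its mean. Counts were 160, 215, 223, 215 and 146 in celecoxib aortas, 147, 301, 156, 311 and 180 in rofecoxib aortas, and 167, 157, 162, 177 and 139 in vehicle aortas. Rofecoxib 4 and rofecoxib 2 stood above all other libraries, and the other 3 rofecoxib libraries lay near the vehicle range. The level was 6.26 ± 1.12 CPM in celecoxib, 7.08 ± 2.71 CPM in rofecoxib and 5.15 ± 0.395 CPM in vehicle aortas (SD, n = 5 each). Rofecoxib against vehicle gave a log2 fold change of 0.46 ± 0.21 (95% interval 0.00305 to 0.91, edgeR adjusted p = 0.962), and 0.30 without rofecoxib 4. For celecoxib against vehicle it was 0.28 ± 0.21 (edgeR adjusted p = 0.632).

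Acta1, the skeletal alpha-actin (ENSMUSG00000031972, mm9 chr8:126415467-126418853), had 31, 65, 79, 92 and 71 counts in celecoxib aortas. It had 72, 33, 91, 55 and 99 counts in rofecoxib aortas, and 86, 108, 65, 87 and 46 in vehicle aortas. Celecoxib 1 and rofecoxib 2 were the lowest libraries, the reverse of their place for Tnnt3. Log2 fold changes were -0.20 ± 0.31 for celecoxib (edgeR adjusted p = 0.837) and -0.17 ± 0.31 for rofecoxib against vehicle, and the rofecoxib value became 0.00771 without rofecoxib 2. The celecoxib value ran from -0.34 without vehicle 5 to -0.01 without celecoxib 1.

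Myh1, the fast 2X myosin heavy chain (ENSMUSG00000056328, mm9 chr11:67013352-67038280), had 2, 14, 1, 12 and 9 counts in celecoxib aortas, 15, 2, 46, 5 and 10 in rofecoxib aortas, and 15, 4, 4, 20 and 27 in vehicle aortas. Rofecoxib 3 held the most reads, and the groups overlapped. The log2 fold change was -0.86 ± 0.80 for celecoxib against vehicle (edgeR adjusted p = 0.712), and -0.47 without vehicle 5. For rofecoxib against vehicle it was 0.14 ± 0.76, with the sign turned at -0.79 without rofecoxib 3 and at -0.14 by limma-voom.

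Mylpf, the fast regulatory light chain (ENSMUSG00000030672, mm9 chr7:134354920-134358014), was low and even. Counts were 17, 12, 15, 10 and 13 in celecoxib aortas, 14, 13, 14, 17 and 8 in rofecoxib aortas, and 13, 13, 16, 12 and 10 in vehicle aortas. Log2 fold changes were 0.09 ± 0.23 for celecoxib (edgeR adjusted p = 0.914) and 0.05 ± 0.23 for rofecoxib against vehicle, and leaving out single libraries turned both signs. Myh4 (ENSMUSG00000057003, mm9 chr11:67051112-67074150) had 1 count in celecoxib 4, 2 in rofecoxib 1 and 1 in vehicle 5, with 0 in the other 12 libraries. It did not pass the filter on low counts and has no place among the 9 tested. With no filter all 10 members were tested and 0 were called in each comparison. At this depth no difference in Myh4 was detectable.

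**Figure D2:**
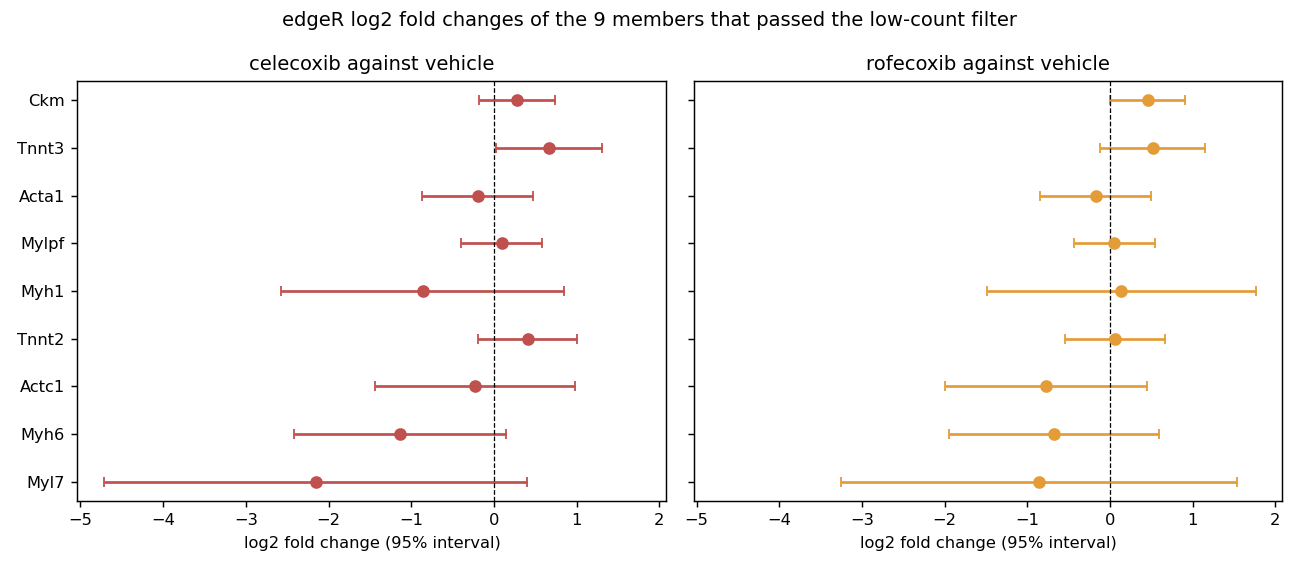
Log2 fold changes of the 9 members tested, celecoxib against vehicle and rofecoxib against vehicle, with 95% intervals from the edgeR fit. Among these, intervals are narrowest for Ckm and Mylpf and widest for Myl7, where celecoxib against vehicle ran from -4.71 to 0.40.

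Across the members, 0 of 9 passed the adjusted threshold in either comparison, as did 0 of all genes tested (0% in each). At an unadjusted p under 0.05, 1 of 9 was called for celecoxib (Tnnt3), beside 1896 of all 15134 genes (12.5%), and 1 of 9 for rofecoxib (Ckm), beside 784 genes (5.18%). A single gene of 9 is near these shares and is not a result about the members. The 5 skeletal genes tested had a median log2 fold change of 0.09 for celecoxib and 0.14 for rofecoxib. The 4 cardiac genes had medians of -0.68 and -0.73, beside 0.00512 and -0.000666 over all genes. Without vehicle 3, which both comparisons share with the other vehicle libraries, the cardiac medians became -0.31 for celecoxib and -0.01 for rofecoxib. The skeletal median for celecoxib ran from -0.01 without celecoxib 1 to 0.20 without celecoxib 4, and that for rofecoxib from 0.04 without rofecoxib 3 to 0.42 without vehicle 5.

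The heart members divided into Myh6 and Myl7, which were high in the same libraries, and Actc1, which was highest in celecoxib 5. Over the 15 libraries, the log2 CPM of Myl7 was correlated with that of Myh6 (Pearson r = 0.803, permutation p = 0.00033, Benjamini-Hochberg adjusted p = 0.00462 over 14 pairs, and Spearman rho = 0.646, permutation p = 0.0107, adjusted p = 0.128). Without the 2 libraries farthest from the median of Myh6, r was 0.620, and the rank measure missed the threshold with all libraries in. For all pairs, groups were pooled and group means were not removed, so differences between groups can enter r and rho. Of the other 13 pairs none passed, and the smallest adjusted p for r was 0.117. Tnnt2 with Myh6 gave r = 0.589 and rho = 0.575 (permutation p = 0.0209 and 0.0274, adjusted p = 0.117 and 0.128), and r = 0.510 without the 2 farthest libraries. Actc1 with Myh6 gave r = 0.00397 and rho = -0.11 (permutation p = 0.989 and 0.695). Among the skeletal members, Ckm with Tnnt3 gave r = 0.479 and rho = 0.579 (permutation p = 0.0709 and 0.0266, adjusted p = 0.199 and 0.128), and r = 0.345 without the 2 farthest libraries. Ckm with Myh1 gave r = -0.488 and rho = -0.507 (permutation p = 0.0657 and 0.0559, adjusted p = 0.199 and 0.157), and r = -0.361 without the 2 farthest libraries. Ckm gave r = -0.319 with Acta1 and 0.188 with Mylpf (permutation p = 0.242 and 0.505, adjusted p = 0.442 and 0.642). Without the 2 farthest libraries both signs turned, to 0.206 and -0.110. Ckm with the smooth muscle myosin Myh11 gave r = 0.576 and rho = 0.518 (permutation p = 0.025 and 0.0508, adjusted p = 0.117 and 0.157), and r = 0.279 without the 2 farthest libraries. No relation was detectable between the skeletal and the cardiac anchor, as Ckm with Myh6 gave r = 0.161 and rho = 0.236 (permutation p = 0.574 and 0.396). Th, which marks sympathetic neurons, split the libraries into separate clusters, so no pooled r is given with it. The pairs of Th with Ckm and with Myh6 used only the 10 libraries lowest in Th, and both count among the 14 pairs. Reads of Myh4 were too few for a pair with Ckm.

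**Figure D3:**
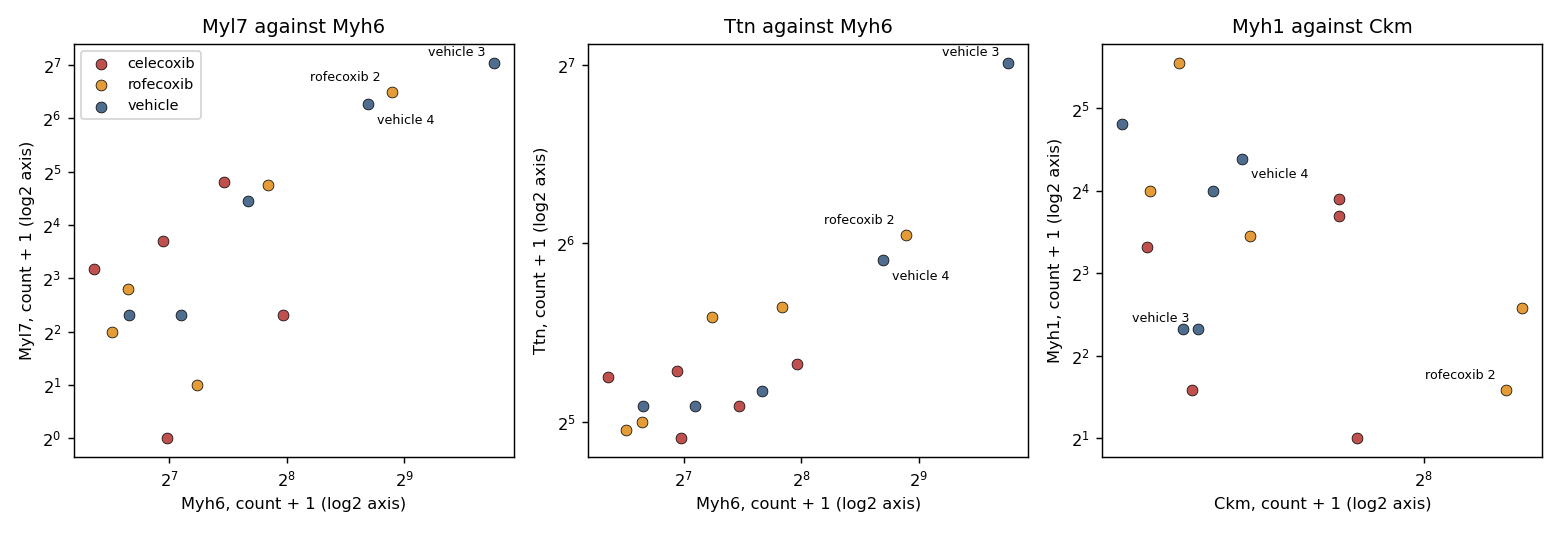
Counts plus 1 on log2 axes for Myl7 against Myh6, Ttn against Myh6 and Myh1 against Ckm, each point 1 library coloured by group. Vehicle 3, vehicle 4 and rofecoxib 2 lie at the upper right for Myl7 and Ttn against Myh6, and no such alignment shows for Myh1 against Ckm.

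The genes most like Myh6 among those tested were mostly other sarcomere genes. Pearson r of log2 CPM with Myh6, over 15 libraries and as a description, was 0.893 for Ttn, the giant sarcomere spring titin, 0.845 for Myl4, the atrial essential light chain, 0.837 for Myom2, an M-band protein, 0.776 for Tnni3, cardiac troponin I, and 0.770 for the integrin Itgae. Ttn had 39, 29, 38, 33 and 37 counts in celecoxib aortas, 49, 65, 31, 47 and 30 in rofecoxib aortas, and 33, 35, 128, 59 and 33 in vehicle aortas. Its 3 highest libraries were those of Myh6. The genes most like Ckm were Tmem218 (0.753), B230307C23Rik (0.753), Tpm2 (0.742), Rpl35a (0.742) and Actg2 (0.738). Tpm2 encodes beta-tropomyosin and Actg2 an actin of smooth muscle, and no myosin or troponin gene was among these 5.

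Atrial genes, and genes shared by both striated muscle types, were often highest in vehicle 3, and most other heart genes were not. Sln, the sarcolipin of atrial muscle, had 3, 1, 3, 3 and 3 counts in celecoxib aortas, 9, 19, 1, 0 and 0 in rofecoxib aortas, and 2, 8, 49, 19 and 6 in vehicle aortas. Mb, myoglobin, had 6, 2, 10, 30 and 5 counts in celecoxib aortas, 22, 47, 15, 27 and 5 in rofecoxib aortas, and 26, 26, 129, 70 and 28 in vehicle aortas. Mybpc3, cardiac myosin-binding protein C, had 23 counts in rofecoxib 2, 43 in vehicle 3 and 20 in vehicle 4, and at most 9 elsewhere. Of 13 genes shared by skeletal and heart muscle, 8 were highest in vehicle 3 (Ckmt2, Cox6a2, Csrp3, Mb, Trdn, Trim63, Ttn and Xirp2), a share of 61.5%, beside 13.0% of all genes with a count. All 3 atrial genes with any count, Myl4, Nppa and Sln, were highest there as well. Of 10 other heart genes with a count, 2 were (Mybpc3 and Tnni3). Some of these ranks rest on few reads. Nppa and Trim63 had 3 counts each in vehicle 3, and Xirp2 had 9 there against 7 in vehicle 4.

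Vehicle 3 stood apart in other tissues too, and the part of these in the heart transcripts was not tested. It was highest for 4 of 5 blood genes, with 3169 counts of Hba-a1, against 190 to 2325 elsewhere, while rofecoxib 2, also high in Myh6, had the lowest Hba-a1. Rofecoxib 2 had the most Acta2 counts, 709026, and vehicle 3 the fewest, 454490. Summed counts of 7 brown fat genes were 7158 to 19165 in celecoxib, 10321 to 17674 in rofecoxib and 17317 to 49873 in vehicle aortas. The brown fat marker Ucp1 was highest in vehicle 5, at 30339 counts, where Myh6 and Myl7 were low, at 100 and 4 counts. Vehicle 4 and vehicle 3 came next for Ucp1, at 13987 and 12443 counts, while rofecoxib 2 had 1825. Over the 15 libraries, Myh6 with Ucp1 gave r = 0.276 and rho = 0.318 (permutation p = 0.316 and 0.248, adjusted p = 0.442 and 0.434). Celecoxib 1 held the most Tnnt2 and Tnnt3, and shared the most Mylpf, while also holding the most Hspb7, Tcap and Myoz1. Other muscle genes were lowest in celecoxib 1, among them Acta1 (31 counts), Pygm (2102), Ryr2 (1556), Pln (239) and Casq2 (31). Of all tested genes, 13.7% were highest in celecoxib 1.

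**Figure D4:**
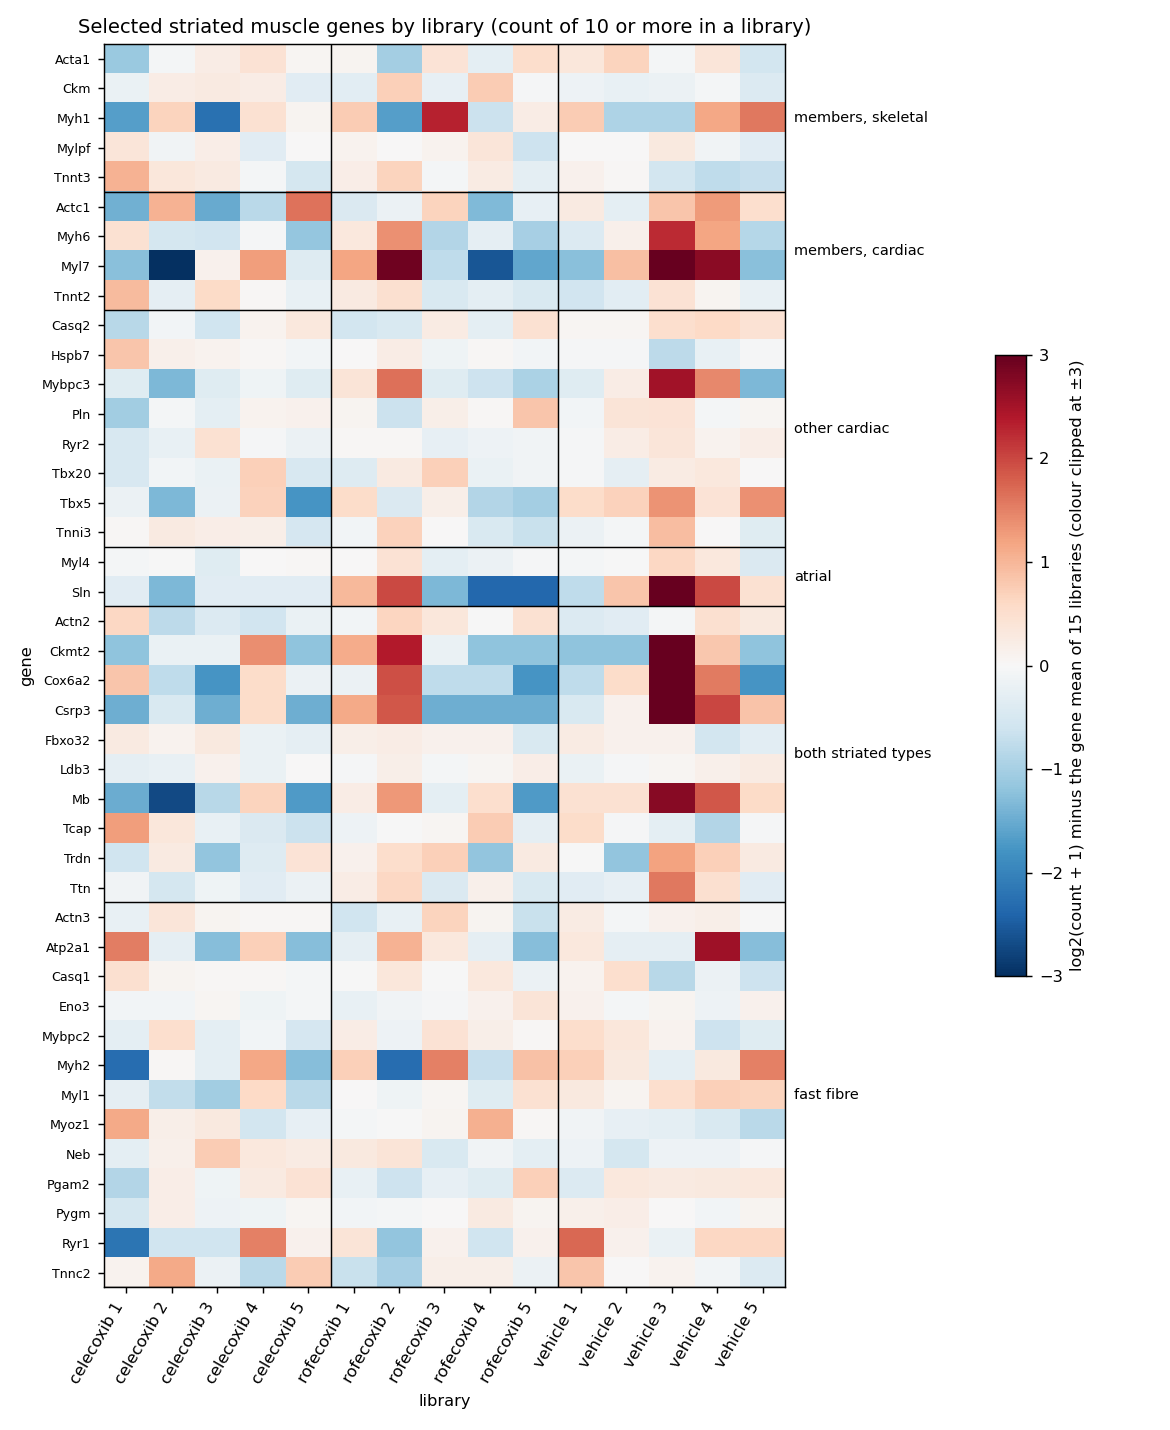
Levels of 9 members and of a selection of other striated muscle genes, each with at least 10 counts in some library, with celecoxib, rofecoxib and vehicle from left to right and colour giving log2(count + 1) minus the gene's mean over libraries. Heart and shared genes such as Myh6, Myl7, Mb and Sln are high in vehicle 3, rofecoxib 2 and vehicle 4, and no skeletal member is high in all 3 of these.

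The other muscle genes gave no adjusted call in either comparison. Of 17 fast-fibre genes, 10 were tested, and for celecoxib against vehicle 2 were higher and 1 lower at an unadjusted p under 0.05, beside the 12.5% above. Neb, the thin-filament ruler nebulin, had a log2 fold change of 0.50 ± 0.21 (edgeR adjusted p = 0.356), Myoz1, a Z-disc protein, 0.70 ± 0.32 (edgeR adjusted p = 0.391), and Myl1, the fast essential light chain, -0.79 ± 0.27 (edgeR adjusted p = 0.294). For rofecoxib against vehicle none of these 10 passed even the unadjusted threshold, and their smallest p was that of Myoz1, at 0.67 ± 0.32 (edgeR adjusted p = 0.980). The median over the 10 was -0.03 for celecoxib and -0.00184 for rofecoxib.

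Of 11 other heart genes, 8 were tested, with medians of -0.26 for celecoxib and -0.20 for rofecoxib. For celecoxib 1 of the 8 was higher and 1 lower at an unadjusted p under 0.05, and for rofecoxib 1 was lower. Over all genes, 12.5% and 5.18% passed that p in either direction. The lower gene in both comparisons, which share the vehicle libraries, was Tbx5, a transcription factor of heart development. It was at -1.25 ± 0.45 for celecoxib (edgeR adjusted p = 0.300) and -1.17 ± 0.45 for rofecoxib (edgeR adjusted p = 0.896). Hspb7, a small heat shock protein of muscle, was at 0.47 ± 0.19 for celecoxib (edgeR adjusted p = 0.339). Among 8 of 13 shared genes tested, with medians of -0.40 and -0.08, Mb was lowest, at -2.35 ± 0.71 for celecoxib (edgeR adjusted p = 0.275) and -1.23 ± 0.67 for rofecoxib (edgeR adjusted p = 0.990). Ttn was at -0.67 ± 0.36 for celecoxib (edgeR adjusted p = 0.467).

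Few genes of the smaller lists passed the filter. The slow troponin Tnnt1, the 1 slow-fibre gene tested of 4, was at 0.26 ± 0.15 for celecoxib and 0.10 ± 0.15 for rofecoxib (edgeR adjusted p = 0.489 and 0.999995). Myl4, the 1 atrial gene tested of 4, was at -0.17 ± 0.18 and -0.11 ± 0.18 (edgeR adjusted p = 0.743 and 0.999995). Myh7, the slow and ventricular heavy chain, was at 0.48 ± 0.39 for celecoxib and 0.23 ± 0.39 for rofecoxib, and the Z-disc gene Myoz2 at -0.01 ± 0.18 and 0.21 ± 0.17. Chrna1, the muscle acetylcholine receptor subunit and the 1 myogenic gene tested of 7, was at 0.19 ± 0.25 and 0.24 ± 0.25. All of these are log2 fold changes against vehicle, with SE.

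Genes of the surrounding tissue were measured in the same fit. The 9 smooth muscle genes had median log2 fold changes of 0.07 for celecoxib and 0.11 for rofecoxib against vehicle, with 1 higher at an unadjusted p under 0.05 in each (Tagln for celecoxib, Myocd for rofecoxib). The 6 brown fat genes tested had medians of -1.18 and -0.96, with 5 lower at an unadjusted p under 0.05 in each comparison, beside 12.5% and 5.18% of all genes called in either direction. For celecoxib 4 of the 6 white fat and 1 of the 5 endothelial genes were also lower at that p, and for rofecoxib 0 of each. The 6 white fat genes had medians of -0.82 and -0.38, and the 5 endothelial genes -0.16 and -0.21. Medians were -0.72 and -1.30 for the 5 blood genes and 1.36 and 1.26 for the 5 sympathetic genes. In these last 2 lists 0 genes passed an unadjusted p under 0.05 in either comparison. The sympathetic values had wide errors, with Th at 1.43 ± 1.82 for celecoxib and 1.05 ± 1.81 for rofecoxib (SE). Th had 292 counts in celecoxib 2, 2725 in celecoxib 4, 715 in rofecoxib 3, 1650 in rofecoxib 5 and 1017 in vehicle 4. Elsewhere it had at most 78. In each of these lists 0 genes passed the adjusted threshold. The part of these tissues in the members' values was not tested.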

How the data were processed

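Thoracic aorta RNA of 15 mice was compared as celecoxib against vehicle and rofecoxib against vehicle, 5 libraries per group. The authors deposited whole-number counts per gene on mm9 coordinates, and CASAVA 1.8.2 and STAR 2.5.2a were used, per the submitters' processing notes. For the counting step, the annotation and the use of strand, no source used here gives details, which leaves overlapping and antisense genes uncertain. Library totals spread by only 0.0971% of their mean. Sequencing rarely gives totals so alike, and no equalising step is recorded, so the original depth is unknown. Libraries were built over several days with no day given per library, so no batch could be tested.

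The function filterByExpr (edgeR 4.0.16, R 4.3.3) retained 15134 genes. TMM factors were 0.953 to 1.04. All 15 libraries entered a single robust quasi-likelihood fit in edgeR without covariates, with Benjamini-Hochberg adjustment over all genes tested and a threshold of 0.05. Standard errors were obtained from fold changes and F statistics, and intervals cover 95%. Pairs of genes were correlated on log2 CPM with a prior count of 2 and two-sided permutation p-values from 100000 resamples. Libraries were permuted across groups. Per-kilobase levels used GENCODE M21 exon lengths, and promoters came from RefSeq. Alternatives were other scalings, no filter, DESeq2 1.42.0, limma-voom (limma 3.58.1), a replicate block, a 10-library fit and leaving out each library. The fit was also tested on simulated counts.

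The members and gene lists were chosen with earlier results of these data known. Named genes were the members, the 2 genes of smallest p per list and comparison, and the 5 most like Ckm and Myh6, of which some in the fat, blood, nerve, endothelial and smooth muscle lists were left out of the text, and some other muscle genes are not reported here. Genes named by their level or by the library in which they were highest were chosen after their values were seen. No columns lacked a sample (0), and no 2 libraries of a group agreed within sampling noise.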

Additional observations from a re-analysis of the deposited data

Results flagged for a closer look

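In groups of 5, a library was singled out where its distance to the nearest other exceeded 0.71 of the group's range. Of 30 groups of member counts examined, 4 met this. For normally distributed values chance alone gives about 1 in 20, but low counts are not so distributed, so these shares cannot be compared. Myl7 in rofecoxib 2, with 89 counts against 1 to 26 in the other rofecoxib libraries, had a gap of 0.716 of the range. The remaining 3 were Myh4, where single libraries held the only reads of their group: celecoxib 4, rofecoxib 1 and vehicle 5, each with a gap of 1 times the range. These rest on 1 or 2 reads, and a group with reads in a single library always has a gap of 1 times the range.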

How the results depend on the processing

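The count of members passing the adjusted threshold was 0 under every alternative run. For celecoxib, DESeq2 called 129 genes where edgeR called 0, and leaving out single libraries gave 0 to 8 (8 without celecoxib 4); the cause was not tested. For rofecoxib every alternative run called 0. By limma-voom the rofecoxib change of Myh1 reversed to -0.14. Leaving out single libraries reversed the celecoxib changes of Mylpf (-0.0102 to 0.20) and Actc1 (-0.84 to 0.0187), and the rofecoxib changes of Tnnt2 (-0.12 to 0.22), Mylpf (-0.0566 to 0.19), Acta1 (-0.32 to 0.00771) and Myh1 (-0.79 to 0.53). The other members kept their sign. All 28 recomputed Pearson correlations kept their sign and side of the threshold, and rank correlations were not part of this check. The replicate numbers did not pair the libraries: same-numbered libraries correlated at -0.721 to 0.775, 6 of 15 pairs were over 0.1, and 4 of 15 libraries correlated best with their own number. The replicate block called 0 genes and 0 members in each comparison.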

Other observations

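Actc1, which did not follow Myh6, had a different closest gene, chosen here after its values were seen. Over 15 libraries Ren1, which encodes renin, had a Pearson r of 0.905 with Actc1 on log2 CPM, the highest of the genes tested and a description only. Ren1 had 2, 66, 2, 11 and 87 counts in celecoxib aortas, 16, 7, 16, 3 and 7 in rofecoxib aortas, and 42, 14, 19, 46 and 16 in vehicle aortas. Celecoxib 5 and celecoxib 2 were the highest libraries for Ren1, and celecoxib 1 and celecoxib 3 the lowest, as for Actc1 within that group. Next came Ak5 (0.868), an adenylate kinase, and Adamtsl1 (0.859).

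For Tnnt3 the closest gene was Ilk (0.894), integrin-linked kinase, with 13267 counts in celecoxib 1, the library with the most Tnnt3, and 9108 in vehicle 4, the library with the least. For Acta1 it was Gata3 (0.885), lowest in celecoxib 1 at 24 counts, the library with the least Acta1. Ilk and Gata3 were also chosen after their values were seen, as the highest r over the genes tested, and are a description only.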
